A study of Homo sapiens with 12 samples.

Results

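The 10 genes described here encode chaperones and folding helpers of the endoplasmic reticulum (ER) and a transcription factor that controls them: HSPA5, HSP90B1, CALR, PDIA4, SDF2L1, CRELD2, DNAJC3, DNAJB9, HERPUD1 and XBP1. They were chosen by name as ER chaperones and targets of the factors XBP1 and ATF6, a choice made with earlier results of these data known although it uses no measured value, and make up 10 of the 65975 gene identifiers in the expression table. RNA was sequenced from RD cells, a fusion-negative rhabdomyosarcoma (FN-RMS) line, and Rh30 cells, a fusion-positive (FP-RMS) line. Cells of each line had been transduced with lentivirus, selected with puromycin and stably carried either the control shRNA (Scramble) or 1 shRNA against the histone demethylase KDM3A (KDM3A-sh2). There were 4 groups of 3 libraries. RD cells grew in DMEM and Rh30 cells in RPMI, both with serum, and no agent that provokes ER stress is named for any group. Each subtype was represented by 1 line and the knockdown by 1 shRNA.

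The ER is where secreted and membrane proteins fold. When unfolded proteins build up there, 3 sensors in its membrane, IRE1, PERK and ATF6, start the unfolded protein response: IRE1 splices the XBP1 mRNA so that it encodes an active factor, ATF6 is cut free to enter the nucleus, and PERK slows translation while favouring that of ATF4. XBP1 and ATF6 raise genes for folding and for ER-associated degradation, and ATF4 raises genes of amino acid supply and stress adaptation. The table holds 1 value per gene, so spliced and unspliced XBP1 mRNA could not be separated, and no protein was measured.

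Expression is given in FPKM, fragments scaled to exon length and library size, which allows levels of different genes to be set side by side per length. Each line was tested with limma on log2(FPKM + 1), and a gene was called when its p-value, adjusted by the Benjamini-Hochberg method over all genes tested, was under 0.05. All log2 fold changes are on this scale. Separate cultures are not stated for the libraries of a group, and the p-values therefore measure only the spread among the libraries sequenced. In the submitters' column labels the Rh30 Scramble libraries all end in the same number, while those of every other group end in different numbers. Replicate numbers used here follow the sample titles. The exact permutation test of a single gene, which at this group size cannot give less than 0.1, gave 0.1 for each of the 10 genes where it was called. In bulk RNA, fewer cells of a kind and less RNA per cell cannot be told apart.

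KDM3A itself was at 35.8, 33.9 and 30.9 FPKM in RD Scramble and 12.0, 11.2 and 13.4 FPKM in RD KDM3A-sh2 (log2 fold change -1.39, SE 0.083, adjusted p = 5e-05). In Rh30 it was at 27.8, 29.2 and 32.0 FPKM with Scramble and 13.7, 13.2 and 15.4 FPKM with KDM3A-sh2 (-1.02, SE 0.079, adjusted p = 0.000348). Of 7 myogenic markers 5 reached 1 FPKM in every group, and MYF5 and MYF6 did not. All 5 markers of fusion-positive tumours reached 1 FPKM in Rh30 and 2 of the 5 in RD. Of 9 markers of epithelial, endothelial, blood and fat cells none reached 1 FPKM in RD and 1, EPCAM, did in Rh30. The summed level of the myogenic markers was 2123 to 2343 FPKM in RD Scramble against 2629 to 2751 FPKM in RD KDM3A-sh2, and 2453 to 2724 against 2830 to 2861 FPKM in Rh30. The single markers split in direction from Scramble to KDM3A-sh2. In RD the means of CHRNA1 (1074 to 1436 FPKM) and DES (796 to 932) rose, and MYOG (184 to 167), MYOD1 (134 to 113) and CDH15 (72.4 to 47.3) fell. In Rh30 MYOG (691 to 1017) and MYOD1 (770 to 930) rose, and CHRNA1 (456 to 292), DES (404 to 371) and CDH15 (285 to 240) fell. Relative depth, estimated from the steps between low values, was 1.03 to 1.19 of the median library in RD Scramble and 0.864 to 0.997 in RD KDM3A-sh2, and in Rh30 it was 1.00 to 1.02 and 0.948 to 0.997. The part of these differences in the results was not tested.

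The ER stress response element is the sequence through which ATF6 and XBP1 are known to act on chaperone genes. It was first defined on promoters of this family, HSPA5, HSP90B1 and CALR among them. Its letters are CCAAT, 9 bases of any kind, then CCACG, and a second, compact form reads ATTGG, 1 base, CCACG. Both were searched on both strands of the RefSeq promoters (GRCh38.p14), from 250 bases before to 50 bases after each transcription start. All 10 genes matched the RefSeq table, XBP1 and PDIA4 with 2 starts each. The matches are printed because they are the sequence feature that most of these genes share, with the fixed letters in capitals and 8 bases on either side.
HSPA5 (chr9:125241391-125241409, minus strand): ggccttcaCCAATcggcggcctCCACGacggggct
HSP90B1, far (chr12:103930216-103930234, plus strand): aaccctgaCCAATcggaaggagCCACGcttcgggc
HSP90B1, near (chr12:103930321-103930339, minus strand): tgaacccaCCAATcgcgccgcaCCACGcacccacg
CALR (chr19:12938384-12938402, minus strand): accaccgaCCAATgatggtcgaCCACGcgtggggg
XBP1 (chr22:28800603-28800621, minus strand): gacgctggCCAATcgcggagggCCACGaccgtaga
CRELD2 (chr22:49918554-49918572, minus strand): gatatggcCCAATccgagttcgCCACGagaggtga
HERPUD1, second form (chr16:56932025-56932035, plus strand): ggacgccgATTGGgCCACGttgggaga
SDF2L1, second form (chr22:21642114-21642124, minus strand): gggttttgATTGGtCCACGcttccgag

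The first form was found in 5 of the 10 genes, against 27 of 35116 RefSeq promoters (0.0769%), and the second in 2 of the 10, against 19 of 35116 (0.0541%). The 10 were chosen as targets of XBP1 and ATF6, so a high share was built into the choice. They were counted by gene over all starts, and the background by promoter. Of 97 genes in the further lists below, counted by gene, 3.09% held the first form and 1.03% the second. In HSPA5, HSP90B1 (far) and XBP1 the element read in the direction of the gene and began 66, 194 and 52 bases before the start, and in HERPUD1 the second form began 117 bases before it. In CALR, CRELD2, SDF2L1 and HSP90B1 (near) it lay on the opposite strand. DNAJB9, DNAJC3 and PDIA4 held neither form in this window, and neither did the second start of XBP1. The letters TGACGTGG, bound by XBP1 and ATF6, were in none of the 10, in 10.3% of the 97 other genes and in 0.729% of all promoters. The core CCACG alone, which lies within both forms, was in all 10 genes, in 70.1% of the 97 other genes and in 38.1% of all promoters. Genes with an element moved in both directions with KDM3A-sh2 in RD, by the values given with each gene. HSP90B1, the gene with the largest change in RD, is shown with its whole promoter (chr12:103930160-103930459, plus strand), in which both elements are in capitals, the near one as its reverse complement.
HSP90B1 promoter: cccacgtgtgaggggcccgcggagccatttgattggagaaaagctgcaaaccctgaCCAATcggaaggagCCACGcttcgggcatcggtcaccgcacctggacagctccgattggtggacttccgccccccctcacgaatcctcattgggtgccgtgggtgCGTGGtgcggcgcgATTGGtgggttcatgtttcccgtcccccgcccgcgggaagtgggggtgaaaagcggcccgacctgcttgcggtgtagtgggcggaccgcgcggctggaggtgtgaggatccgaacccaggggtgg

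**Figure D1:**
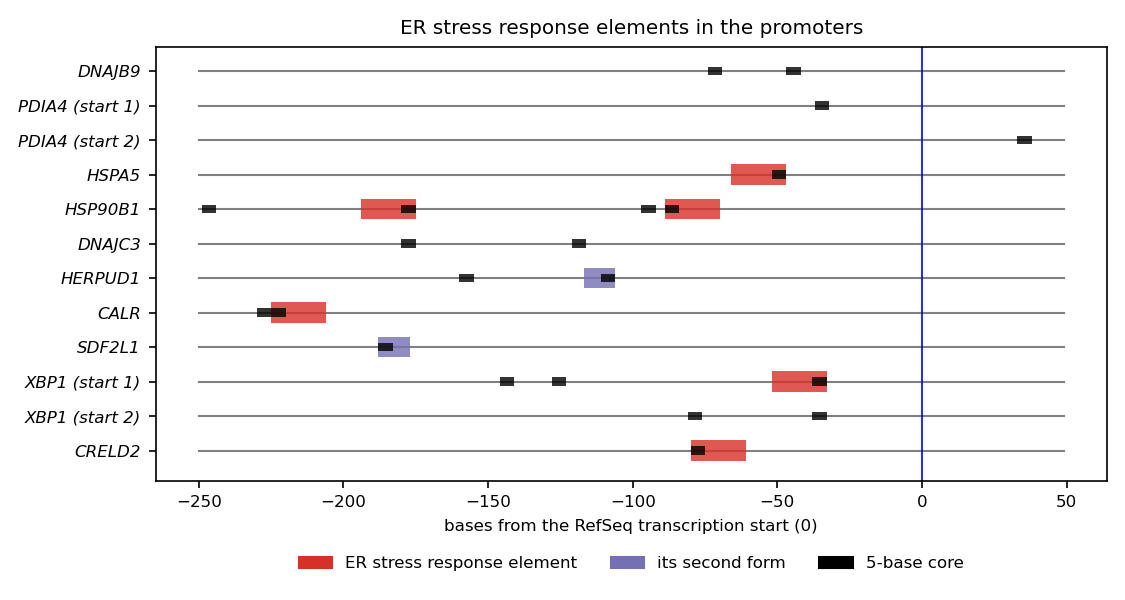
Promoters of the 10 genes (rows, XBP1 and PDIA4 with 2 starts each) against the distance in bases from the RefSeq transcription start at 0. Red boxes are ER stress response elements, purple boxes the second form and black boxes every copy of the 5-base core; HSP90B1 has 2 red boxes, and DNAJB9, DNAJC3 and PDIA4 have black boxes only.

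In RD cells, KDM3A-sh2 went with lower levels of 5 of the 10 genes and higher levels of 3. The large ER chaperone HSP90B1 fell most, from 965 to 643 FPKM on average, and with it fell SDF2L1, CRELD2, PDIA4 and, by a small margin, HSPA5. XBP1 rose most, followed by HERPUD1 and DNAJC3. Over all 18001 genes tested, 19.5% were called lower and 21.6% higher. The median log2 fold change of the 10 genes was -0.03, beside 0.0067 for all genes tested, and their median absolute change was 0.27, beside 0.22. The 10 genes thus moved in both directions in RD.

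In Rh30 cells, 4 of the 10 were called lower (HERPUD1, HSP90B1, PDIA4 and HSPA5) and 1 higher (XBP1). Over all 17811 genes tested, 13.2% were called lower and 15.3% higher. The median of the 10 was -0.070 beside 0.031 for all genes, and their median absolute change was 0.17 beside 0.18. HSP90B1, PDIA4 and HSPA5 were thus called lower and XBP1 higher in both lines. Of these, only PDIA4 passed in all alternative analyses of both lines. HSPA5 in RD passed in 5 of 15, HSP90B1 in Rh30 in 12 of 16 and XBP1 in Rh30 in 11 of 15.

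**Figure D2:**
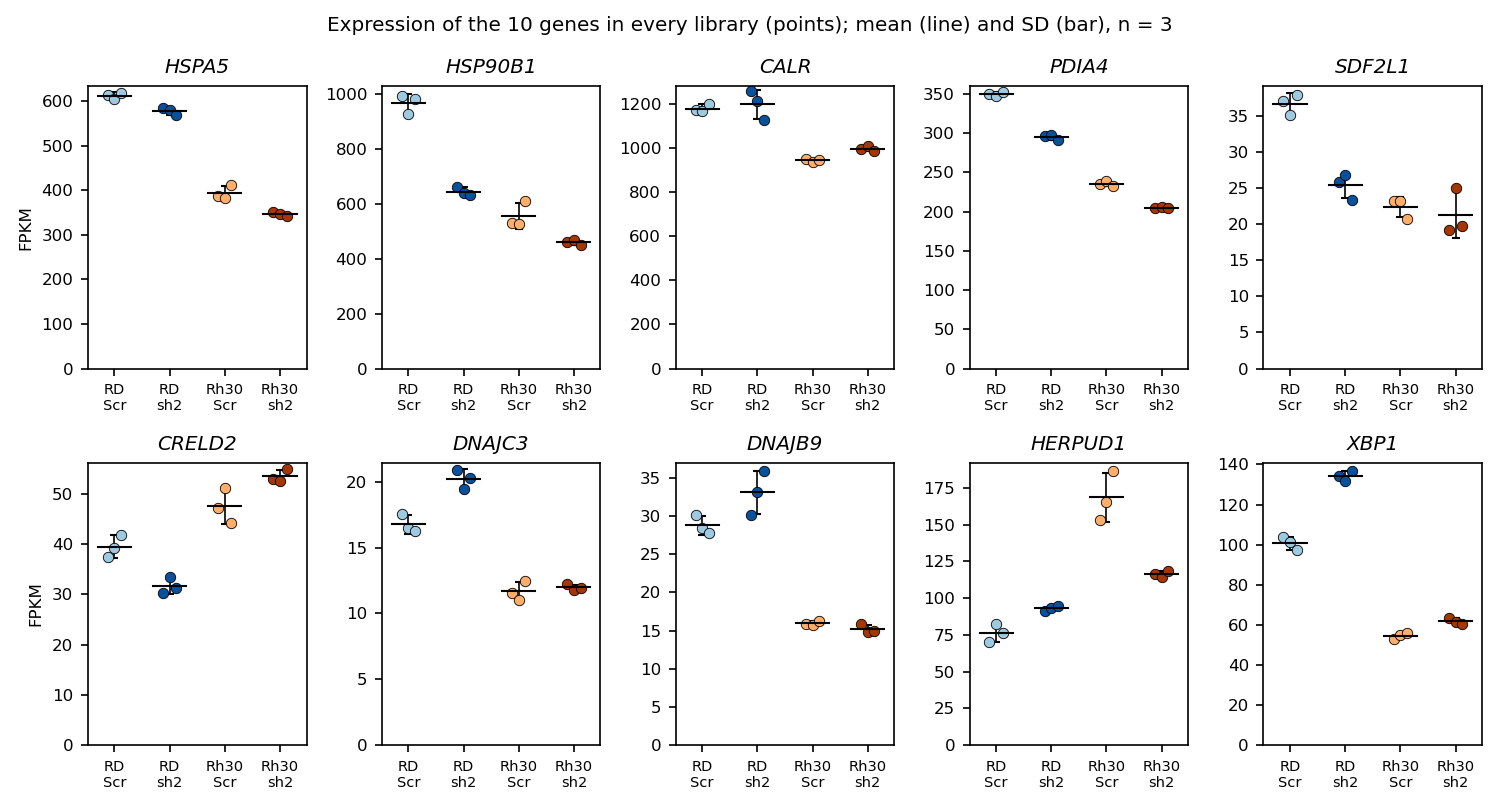
FPKM of each of the 10 genes (1 panel each, linear axis from 0) in the 4 groups, with a point per library, a line at the mean and a bar for the SD (n = 3). HSP90B1 and PDIA4 sit lower with KDM3A-sh2 (sh2) than with Scramble (Scr) in both lines and XBP1 higher, while HERPUD1 is higher with KDM3A-sh2 in RD and lower in Rh30.

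HSPA5 (ENSG00000044574, chr9:125234853-125241330 of GRCh38, minus strand), known as BiP or GRP78, is the ER member of the HSP70 family, binds unfolded chains and holds the stress sensors inactive. It was at 614, 604 and 619 FPKM in RD Scramble, 585, 580.2 and 569 FPKM in RD KDM3A-sh2, 386, 383 and 412 FPKM in Rh30 Scramble and 352, 347 and 342 FPKM in Rh30 KDM3A-sh2. The KDM3A-sh2 libraries lay below the Scramble libraries in each line without overlap. The log2 fold change was -0.083 in RD (SE 0.0275, adjusted p = 0.049) and -0.18 in Rh30 (SE 0.037, adjusted p = 0.0132). In RD the call passed in 5 of 15 alternative analyses and in none of the 6 fits without 1 library, which gave -0.093 to -0.071 with adjusted p from 0.0758 (without Scramble replicate 2) to 0.14 (without Scramble replicate 3).

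HSP90B1 (ENSG00000166598, chr12:103930107-103953645, plus strand), known as GRP94, is the HSP90 of the ER and folds integrins and Toll-like receptors among others. Its values were 989.7, 926 and 980.4 FPKM in RD Scramble and 661, 638 and 631 FPKM in RD KDM3A-sh2. In Rh30 they were 531, 527 and 609 FPKM with Scramble and 459, 468 and 449.5 FPKM with KDM3A-sh2. The groups of each line did not overlap, and Scramble replicate 3 of Rh30 stood above its 2 companions. The log2 fold change was -0.58 in RD (SE 0.037, adjusted p = 6.2e-05) and -0.27 in Rh30 (SE 0.059, adjusted p = 0.0164). The Rh30 call was lost without KDM3A-sh2 replicate 1 (-0.27, adjusted p = 0.0538) and without KDM3A-sh2 replicate 3 (-0.26, adjusted p = 0.0513).

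Reads of HSP90B1 may be shared with the processed copies HSP90B2P and HSP90B3P, whose own values moved with it. HSP90B2P averaged 67.1 ± 1.24 FPKM (SD, n = 3) in RD Scramble and 44.6 ± 0.31 FPKM in RD KDM3A-sh2, and HSP90B3P 61.01 ± 2.82 and 39.3 ± 0.95 FPKM. With both copies added to HSP90B1, the log2 fold change came to -0.59 for RD (adjusted p = 4.8e-05) and to -0.29 for Rh30 (adjusted p = 0.011), which moved both values by less than their SE.

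CALR (ENSG00000179218, chr19:12938578-12944489, plus strand) encodes calreticulin, a calcium-binding lectin chaperone of newly made glycoproteins, and was the most abundant of the 10 per length. It was at 1173, 1168 and 1202 FPKM in RD Scramble, 1259, 1215 and 1129.6 FPKM in RD KDM3A-sh2, 952, 938 and 948 FPKM in Rh30 Scramble and 999, 1009.7 and 988 FPKM in Rh30 KDM3A-sh2. The RD groups overlapped, while the Rh30 KDM3A-sh2 libraries were all above the Scramble ones by a small amount. Neither change passed, with 0.023 in RD (SE 0.044, adjusted p = 0.707) and 0.079 in Rh30 (SE 0.026, adjusted p = 0.0614). The Rh30 change passed in 2 of 15 alternatives, those with each gene modelled alone (adjusted p = 0.0208 unlogged, 0.0203 on log2).

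PDIA4 (ENSG00000155660, chr7:149003062-149028641, minus strand), or ERp72, is a protein disulfide isomerase. It measured 349.6, 348 and 353 FPKM in RD Scramble and 296, 297 and 291 FPKM in RD KDM3A-sh2. In Rh30 the levels were 235, 239 and 233 FPKM with Scramble and 205, 206 and 205 FPKM with KDM3A-sh2. Replicates differed little from each other here, and the groups were well apart in both lines. The log2 fold change was -0.25 in RD (SE 0.027, adjusted p = 0.000562) and -0.20 in Rh30 (SE 0.029, adjusted p = 0.00376), and both calls passed in all 15 alternatives.

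SDF2L1 (ENSG00000128228, chr22:21642261-21644298, plus strand) works with ER HSP40 proteins and keeps folding intermediates soluble. It was at 37.1, 35.1 and 37.9 FPKM in RD Scramble, 25.9, 26.8 and 23.4 FPKM in RD KDM3A-sh2, 23.2, 23.2 and 20.8 FPKM in Rh30 Scramble and 19.2, 25.03 and 19.7 FPKM in Rh30 KDM3A-sh2. The RD groups were apart and the Rh30 groups overlapped, with KDM3A-sh2 replicate 2 of Rh30 the highest of the 6. The log2 fold change was -0.52 in RD (SE 0.063, adjusted p = 0.000848) and -0.073 in Rh30 (SE 0.106, adjusted p = 0.644).

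CRELD2 (ENSG00000184164, chr22:49918167-49927540, plus strand) is an ER protein induced by stress that takes part in disulfide folding of matrix proteins. Levels of 37.4, 39.3 and 41.9 FPKM in RD Scramble stood against 30.3, 33.4 and 31.2 FPKM in RD KDM3A-sh2. Rh30 had 47.2, 51.2 and 44.2 FPKM with Scramble and 53.1, 52.7 and 55.0 FPKM with KDM3A-sh2. The KDM3A-sh2 libraries were all below Scramble in RD and all above it in Rh30. The RD change of -0.31 passed (SE 0.060, adjusted p = 0.00642) and the Rh30 value of 0.17 did not (SE 0.060, adjusted p = 0.0745), though it did without Rh30 Scramble replicate 2 (0.23, adjusted p = 0.0308).

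DNAJC3 (ENSG00000102580, chr13:95677139-95794989, plus strand), or p58IPK, is an HSP40 co-chaperone of HSPA5 and the least abundant of the 10 per length. It was at 17.6, 16.5 and 16.2 FPKM in RD Scramble, 20.9, 19.4 and 20.3 FPKM in RD KDM3A-sh2, 11.6, 11.0 and 12.5 FPKM in Rh30 Scramble and 12.2, 11.8 and 11.9 FPKM in Rh30 KDM3A-sh2. The gene rose in RD without overlap of the groups (log2 fold change 0.26, SE 0.057, adjusted p = 0.0108). In Rh30 the groups overlapped (0.036, SE 0.065, adjusted p = 0.712).

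DNAJB9 (ENSG00000128590, chr7:108569568-108574850, plus strand), or ERdj4, is another HSP40 co-chaperone, which brings HSPA5 to the sensor IRE1 and to clients of degradation. It was at 30.18, 28.4 and 27.8 FPKM in RD Scramble and 30.20, 33.2 and 35.9 FPKM in RD KDM3A-sh2, so the groups met at one edge. In Rh30 it was at 15.9, 15.7 and 16.2 FPKM with Scramble and 15.8, 14.8 and 14.9 FPKM with KDM3A-sh2, which overlapped. The log2 fold change did not pass in RD (0.19, SE 0.071, adjusted p = 0.0695) or in Rh30 (-0.067, SE 0.053, adjusted p = 0.389). In RD it passed without KDM3A-sh2 replicate 1 (0.25, adjusted p = 0.0287) and in 4 of 15 alternatives in all.

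HERPUD1 (ENSG00000051108, chr16:56932048-56944863, plus strand) is a membrane protein that gathers the machinery of ER-associated degradation. It was at 70.4, 82.3 and 76.1 FPKM in RD Scramble and 91.3, 93.5 and 94.5 FPKM in RD KDM3A-sh2. In Rh30 the order was the other way round, with 153, 166 and 186 FPKM in Scramble and 117, 115 and 118 FPKM in KDM3A-sh2. It was thus the gene of the 10 called in opposite directions, with a log2 fold change of 0.29 in RD (SE 0.059, adjusted p = 0.00797) and -0.52 in Rh30 (SE 0.070, adjusted p = 0.00266), and both calls passed in all 15 alternatives.

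XBP1 (ENSG00000100219, chr22:28794555-28800597, minus strand) encodes the transcription factor made active through IRE1. It was at 103.6, 101 and 97.1 FPKM in RD Scramble, 134, 132 and 137 FPKM in RD KDM3A-sh2, 52.9, 54.8 and 56.0 FPKM in Rh30 Scramble and 63.4, 61.6 and 60.5 FPKM in Rh30 KDM3A-sh2. Every KDM3A-sh2 library exceeded every Scramble library of its line. The log2 fold change was 0.41 in RD (SE 0.038, adjusted p = 0.000258) and 0.18 in Rh30 (SE 0.041, adjusted p = 0.0207). The Rh30 call was lost without Scramble replicate 1 (0.16, adjusted p = 0.0677), KDM3A-sh2 replicate 1 (0.16, adjusted p = 0.0762) or KDM3A-sh2 replicate 2 (0.18, adjusted p = 0.0618).

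By non-overlap of the libraries, 4 of the 10 genes were higher and 5 lower with KDM3A-sh2 in RD, beside 28.1% and 25.3% of all genes tested, and 3 were higher and 4 lower in Rh30, beside 25.6% and 20.2%. On log2(FPKM + 1) none of the calls in either line reached a change of 1.5-fold. HSP90B1 in RD lay at that limit, at -0.58, at -0.59 with the copies added and at -0.61 to -0.57 without 1 library. Some exons overlap genes on the other strand, and the strand setting of the counting was not given in the sources used here. THAP5 and PNPLA8 share 6.45% and 3.49% of the exonic bases of DNAJB9, ALG12 shares 3.25% of those of CRELD2 and C12orf73 2.58% of those of HSP90B1, and reads there could belong to either gene.

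**Figure D3:**
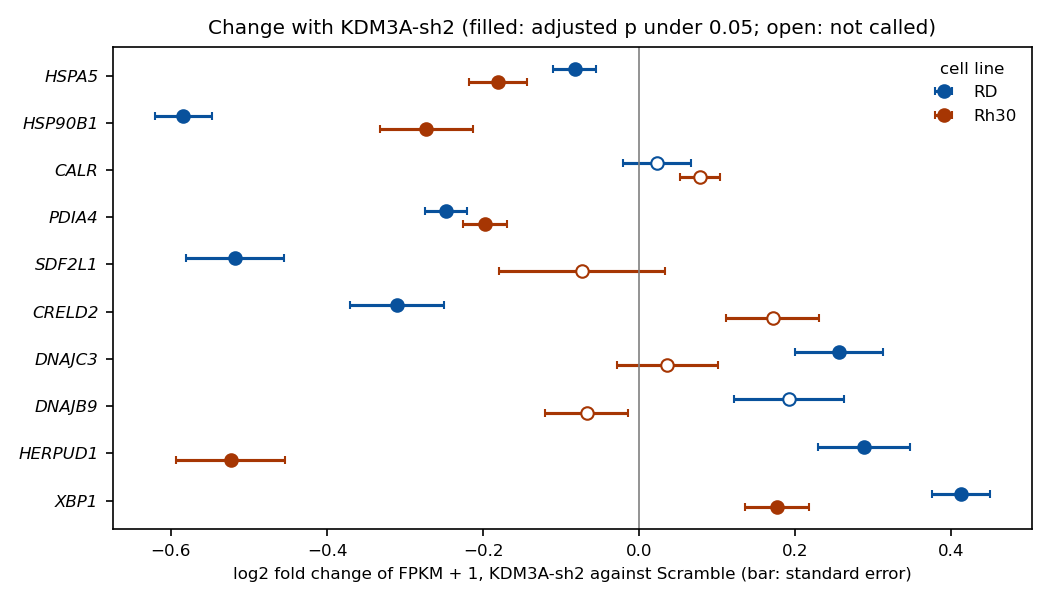
Log2 fold change of FPKM + 1 with KDM3A-sh2 against Scramble for the 10 genes in RD (blue) and Rh30 (brown), with the standard error as a bar; filled points were called by limma and open points were not. HSP90B1 is at -0.58 and -0.27 and XBP1 at 0.41 and 0.18, while HERPUD1 lies on opposite sides of 0.

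Whether the lines differed in their change was tested with the interaction of shRNA and line over all 12 libraries. In this test too the line and its culture medium cannot be told apart. Of the 10 genes 6 were called, 3 positive (change in Rh30 above that in RD) and 3 negative, beside 14.4% positive and 13.5% negative of 18532 genes tested. HERPUD1 differed most, by -0.81 (SE 0.097, adjusted p = 0.000151), followed by CRELD2 at 0.48 (SE 0.086, adjusted p = 0.00202). HSP90B1 fell less in Rh30 than in RD (difference 0.31, SE 0.073, adjusted p = 0.00918) and XBP1 rose less (-0.24, SE 0.051, adjusted p = 0.00606). These 4 calls passed the test in all of their 20 or 21 alternative fits, and of the 4 only HERPUD1 also differed by 1.5-fold or more.

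The differences of SDF2L1 (0.44, SE 0.131, adjusted p = 0.0277) and DNAJB9 (-0.26, SE 0.087, adjusted p = 0.0474) were less secure, passing in 14 and 6 of 20 alternatives. Without 1 library SDF2L1 ran from 0.33 to 0.51 and missed the threshold in 4 of 12 such fits, those without RD Scramble replicate 1 (0.44, adjusted p = 0.0533) or replicate 3 (0.42, adjusted p = 0.0618), RD KDM3A-sh2 replicate 3 (0.39, adjusted p = 0.0647) and Rh30 Scramble replicate 3 (0.39, adjusted p = 0.0623). DNAJB9 ran from -0.32 to -0.20 and missed it in 9 of 12, passing only without RD Scramble replicate 1, RD KDM3A-sh2 replicate 1 or Rh30 KDM3A-sh2 replicate 1. For HSPA5 (-0.099, adjusted p = 0.115), DNAJC3 (-0.22, adjusted p = 0.0617), CALR (0.056, adjusted p = 0.451) and PDIA4 (0.050, adjusted p = 0.29) no difference between the lines was called. DNAJC3 passed without RD Scramble replicate 1 (-0.25, adjusted p = 0.0483) and without Rh30 Scramble replicate 2 (-0.26, adjusted p = 0.0373). On the TPM scale, where all libraries have 1 sum, HSPA5 (-0.16) and DNAJC3 (-0.27) were called too and the 10 genes split 3 positive to 5 negative, while over all genes the split went from 2669 and 2493 to 2081 and 3029.

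With the control shRNA the lines had different levels, with 8 of the 10 genes lower in Rh30 Scramble than in RD Scramble and HERPUD1 and CRELD2 higher. All 10 were called, beside 39.6% lower and 34.9% higher of 18367 genes tested, and all 10 were without overlap (41.1% lower and 36.4% higher of all genes). XBP1 (-0.87), DNAJB9 (-0.81) and HSP90B1 (-0.80) were furthest down on the log2 scale, then SDF2L1 (-0.69), HSPA5 (-0.64), PDIA4 (-0.57), DNAJC3 (-0.49) and CALR (-0.32), with adjusted p from 2.15e-06 to 0.000484. HERPUD1 was 1.13 higher in Rh30 (SE 0.086, adjusted p = 1.8e-05) and CRELD2 0.26 higher (SE 0.070, adjusted p = 0.0118). The median of the 10 was -0.60, beside -0.040 over all genes. On the TPM scale the median over all genes moved to -0.14, HERPUD1 stood at 1.02 and CRELD2 at 0.15, the latter no longer called (adjusted p = 0.0699). The line and its culture medium cannot be told apart here, and this comparison shares the Scramble libraries with those above.

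Across the 4 groups HSPA5, HSP90B1 and PDIA4 had the same order, RD Scramble highest, then RD KDM3A-sh2, Rh30 Scramble and Rh30 KDM3A-sh2, with no overlap between neighbours. XBP1 ran from RD KDM3A-sh2 through RD Scramble and Rh30 KDM3A-sh2 to Rh30 Scramble, again without overlap. HERPUD1 went from Rh30 Scramble through Rh30 KDM3A-sh2 and RD KDM3A-sh2 to RD Scramble, and CRELD2 from Rh30 KDM3A-sh2 through Rh30 Scramble and RD Scramble to RD KDM3A-sh2, each without overlap. In SDF2L1 the Rh30 KDM3A-sh2 libraries overlapped those of Rh30 Scramble and those of RD KDM3A-sh2, which did not overlap each other, in DNAJB9 and DNAJC3 the Rh30 groups did, and in CALR the RD groups.

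Likeness of pattern was measured as the root mean square difference between 2 genes over the 12 libraries, each on log2(FPKM + 1) around its own mean, where 0 is an identical pattern. Within the 10, HSPA5 and PDIA4 were the closest pair (0.097), then XBP1 and DNAJB9 (0.129) and HSP90B1 and PDIA4 (0.144). Among 11016 other genes averaging 10 FPKM or more, the nearest to HSP90B1 was its copy HSP90B2P (0.066). XBP1 was nearest to the collagen-modifying CRTAP (0.047), CALR to the translation factor EIF3I (0.040), PDIA4 to RBM8A (0.040), DNAJB9 to CBR4 (0.046), CRELD2 to RPL28 (0.046), DNAJC3 to KIDINS220 (0.054), HERPUD1 to RAB3IP (0.092) and SDF2L1 to CLCC1 (0.095). The points share libraries and the large difference between lines.

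The wider setting of the 10 genes was taken from 5 lists of 114 other genes, whose counts stand beside the shares of all genes called given above for each line (21.6% higher and 19.5% lower in RD, 15.3% and 13.2% in Rh30). Among 30 folding enzymes and chaperones, 14 were called higher and 3 lower in RD (median log2 fold change 0.13) and 3 higher and 6 lower in Rh30 (median -0.024). Without 1 library these counts were 10 to 14 and 3 in RD and 0 to 3 and 4 to 7 in Rh30, the higher count in Rh30 being 1 without Scramble replicate 2 and 0 without KDM3A-sh2 replicate 1. CANX, the membrane-bound partner of calreticulin, fell most of them in both lines. It was at 447, 489 and 459 FPKM in RD Scramble and 204.5, 188 and 184 FPKM in RD KDM3A-sh2 (-1.27, SE 0.052, adjusted p = 1.63e-05), and at 346, 378 and 336 FPKM against 172, 192 and 189 FPKM in Rh30 (-0.93, SE 0.060, adjusted p = 0.000205). CALR, its soluble counterpart, was called in neither line, and the promoter of CANX was 1 of 3 among the 97 other listed genes with a RefSeq promoter that held the first form of the stress element.

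HYOU1, the nucleotide exchange factor that serves HSPA5, fell in both lines (-0.23 in RD, -0.50 in Rh30), while SIL1, which has the same function, rose in RD (0.62) and was at 0.23 in Rh30 (adjusted p = 0.362). The prolyl isomerase FKBP14, known for collagen folding, rose in RD from 65.4, 55.0 and 58.4 to 119, 125 and 121 FPKM (1.02, SE 0.065, adjusted p = 6.64e-05) and was at 0.18 in Rh30 (adjusted p = 0.132). UGGT1, the sensor that returns misfolded glycoproteins to CALR and CANX, fell in Rh30 (-0.48, adjusted p = 0.0214), a call lost whichever of the 3 Scramble libraries was left out (-0.50 to -0.45, adjusted p = 0.0524 to 0.0648).

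Of 23 tested genes of ER-associated degradation, the pathway in which HERPUD1 acts, 13 rose and 2 fell in RD (median 0.22) and 5 rose and 2 fell in Rh30 (median 0.049). In the fits that left out 1 library 11 to 12 rose and 0 to 2 fell in RD, where only the fit without Scramble replicate 3 kept 2 lower, and 1 to 4 rose and 1 to 3 fell in Rh30, where the higher count was 1 without KDM3A-sh2 replicate 2. EDEM2 (0.56) and EDEM1 (0.54), which mark glycoproteins for disposal, and HERPUD2 (0.52), the relative of HERPUD1, led in RD. In Rh30 these 3 genes were at 0.05, 0.06 and -0.02 and were not called. UBXN4, which recruits the extraction machinery to the ER membrane, rose in both lines (0.31 and 0.24). The ubiquitin-conjugating enzyme UBE2J1 was at 0.43 in RD and -0.20 in Rh30, and UBE2G2 at -0.17 and 0.21. The RD call of UBE2J1 passed in every fit without 1 library. The Rh30 call of UBE2J1 was lost without Scramble replicate 1 and without each of the 3 KDM3A-sh2 libraries (-0.20 to -0.19). For UBE2G2 the RD call was lost in all such fits but the one without Scramble replicate 3 (-0.18 to -0.14), and the Rh30 call without Scramble replicate 1, Scramble replicate 2 or KDM3A-sh2 replicate 2 (0.20 to 0.22).

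The list of translocon, N-glycosylation and early transport genes had 28 members, of which 14 rose and 5 fell in RD (median 0.13) and 7 rose and 4 fell in Rh30 (median 0.036). With 1 library left out the range was 12 to 15 higher and 3 to 4 lower in RD, and 5 to 9 higher and 1 to 3 lower in Rh30, where the lower count was 1 without KDM3A-sh2 replicate 1 or 3. KDELR3, a receptor that returns escaped ER chaperones from the Golgi, rose in RD from 34.6, 36.5 and 35.9 to 67.0, 65.1 and 66.4 FPKM (0.87, adjusted p = 2.09e-05) and in Rh30 from 2.29, 2.02 and 1.85 to 3.83, 3.26 and 3.77 FPKM (0.60, adjusted p = 0.01). STT3B, a catalytic subunit of oligosaccharyltransferase, fell in both lines (-0.61 and -0.37), the Rh30 call being lost without KDM3A-sh2 replicate 1 (-0.32, adjusted p = 0.0557) or replicate 3 (-0.34, adjusted p = 0.0521). The coat protein SEC23B rose in RD (0.49), the translocon subunit SSR4 rose in Rh30 (0.47) and the signal peptidase subunit SPCS3 fell in both lines (-0.22, adjusted p = 0.0354 in RD, and -0.44 in Rh30). The RD call of SPCS3 was lost without Scramble replicate 1 or 2 and without KDM3A-sh2 replicate 1 or 2 (-0.24 to -0.17, adjusted p = 0.0676 to 0.106).

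Of 13 genes of the stress sensors and their processing, 6 rose and 2 fell in RD (median 0.15) and 2 rose and 3 fell in Rh30 (median -0.028). When each library was left out in turn, 4 to 6 rose and 2 fell in RD, and 2 to 3 rose and 2 fell in Rh30. EIF2AK3, the PERK sensor, was at 22.9, 15.6 and 15.3 FPKM in RD Scramble and 32.4, 31.7 and 35.0 FPKM in RD KDM3A-sh2 (0.87, adjusted p = 0.00345) and was at 0.19 in Rh30 (adjusted p = 0.0633, passing at 0.24 without Rh30 Scramble replicate 3, adjusted p = 0.03). ERN1, the IRE1 sensor, was at 0.31 in RD (adjusted p = 0.0307, lost in 4 of 6 fits without 1 library, at 0.26 to 0.30) and 0.25 in Rh30 (adjusted p = 0.38). ATF6 was called in neither line (-0.085 and -0.12), and its relative ATF6B rose in Rh30 (0.54). CREB3L2, an ER-bound factor of the same kind, rose in both lines (0.74 and 0.58), whereas CREB3L1 rose in RD from 22.5, 26.0 and 25.3 to 36.3, 37.5 and 36.8 FPKM and fell in Rh30 from 3.57, 3.10 and 2.88 to 0.966, 0.975 and 0.864 FPKM (0.57 and -1.11). MBTPS2, a protease that takes part in cutting ATF6 and these factors, fell in Rh30 (-0.31).

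The PERK-ATF4 list was the one with the most one-sided difference between the lines: 11 of 18 tested genes rose and 1 fell in RD (median 0.28), 3 of 19 rose and 7 fell in Rh30 (median -0.0058), and the interaction called 13 of 19 negative and 0 positive (median -0.35, beside 0.024 over all genes, of which 13.5% were called negative and 14.4% positive). Leaving out 1 library gave 10 to 11 higher and 1 lower in RD, 2 higher and 4 to 6 lower in Rh30 (4 without Scramble replicate 1 or KDM3A-sh2 replicate 1 or 2), and 12 to 13 negative and 0 positive in the interaction. ATF4 was at 335, 352 and 338 FPKM in RD Scramble and 441, 424 and 435 FPKM in RD KDM3A-sh2 (0.34, adjusted p = 0.000323), and at 302, 309 and 304 FPKM against 258, 259 and 252 FPKM in Rh30 (-0.25, adjusted p = 0.0016). The asparagine synthetase ASNS went from 43.5, 43.3 and 43.3 to 93.8, 96.2 and 96.2 FPKM in RD (1.12, adjusted p = 1.11e-05) and from 31.1, 31.4 and 30.1 to 25.6, 26.2 and 27.4 FPKM in Rh30 (-0.22, adjusted p = 0.016). The Rh30 call of ASNS was lost without Scramble replicate 1 (-0.21, adjusted p = 0.0534), KDM3A-sh2 replicate 1 (-0.20, adjusted p = 0.0609) or KDM3A-sh2 replicate 2 (-0.21, adjusted p = 0.0549). ATF4, ASNS and HERPUD1 were thus called higher in RD and lower in Rh30. Among the genes named here, CREB3L1, UBE2J1 and CHAC1 were called in the same directions. A link between these genes was not tested. The list is named for a pathway, and activity of PERK was not measured. Line and culture medium cannot be told apart in these differences.

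CHAC1, which degrades glutathione, rose in RD from 8.77, 7.98 and 9.10 to 23.7, 27.7 and 25.3 FPKM (1.47, adjusted p = 3.46e-05). In Rh30, at 1.49, 1.47 and 1.64 against 0.935, 0.866 and 0.754 FPKM, it was close to the limit of 1 FPKM and its call (-0.45, adjusted p = 0.0472) was lost in all 6 fits without 1 library (-0.48 to -0.41). The stress factor ATF3 rose in RD (0.72) and was at 0.02 in Rh30. DDIT3, or CHOP, rose in both lines (0.23, adjusted p = 0.00939 in RD, and 0.21, adjusted p = 0.00845 in Rh30). In Rh30 the secreted glycoprotein STC2 (-0.72), the mTOR inhibitor DDIT4 (-0.70) and the death receptor TNFRSF10B (-0.35) fell, and DDIT4 fell in RD too (-0.40).

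**Figure D4:**
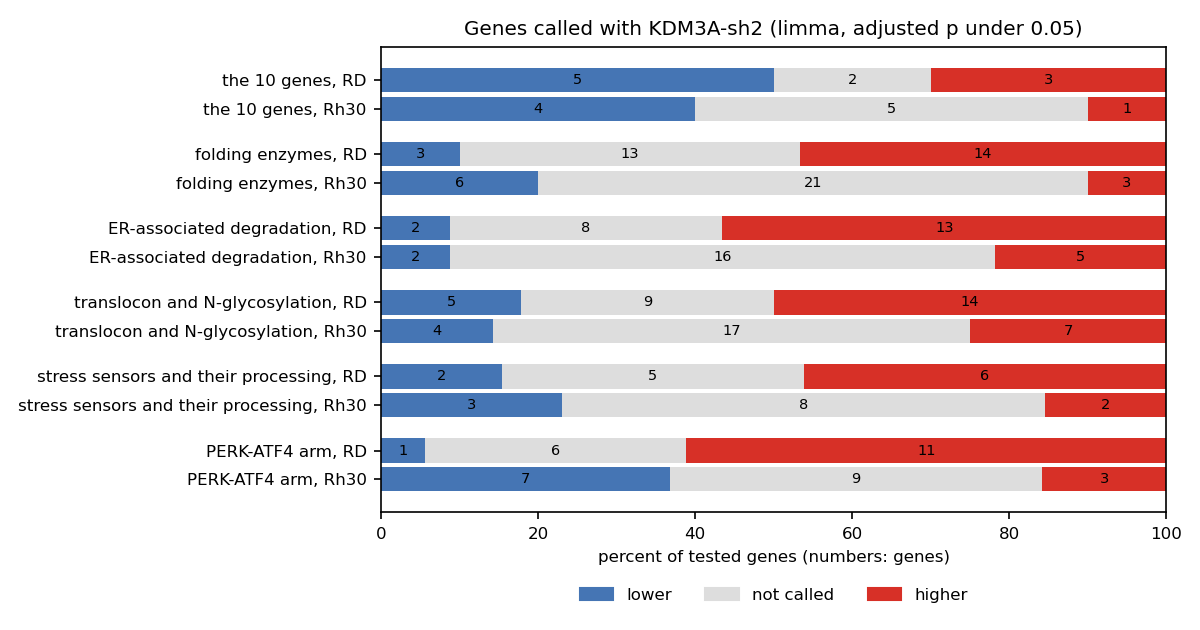
Percent of tested genes called lower (blue), not called (grey) and higher (red) with KDM3A-sh2 in RD and Rh30, for the 10 genes and the 5 other lists, with the number of genes printed in each bar. In RD the other lists, of 13 to 30 tested genes each, have 6 to 14 genes higher against 1 to 5 lower. The 10 genes have 3 against 5. The lists differ in size, so counts show direction within a list and not amounts between lists. Over all genes tested in RD, 21.6% were called higher and 19.5% lower.

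**Figure D5:**
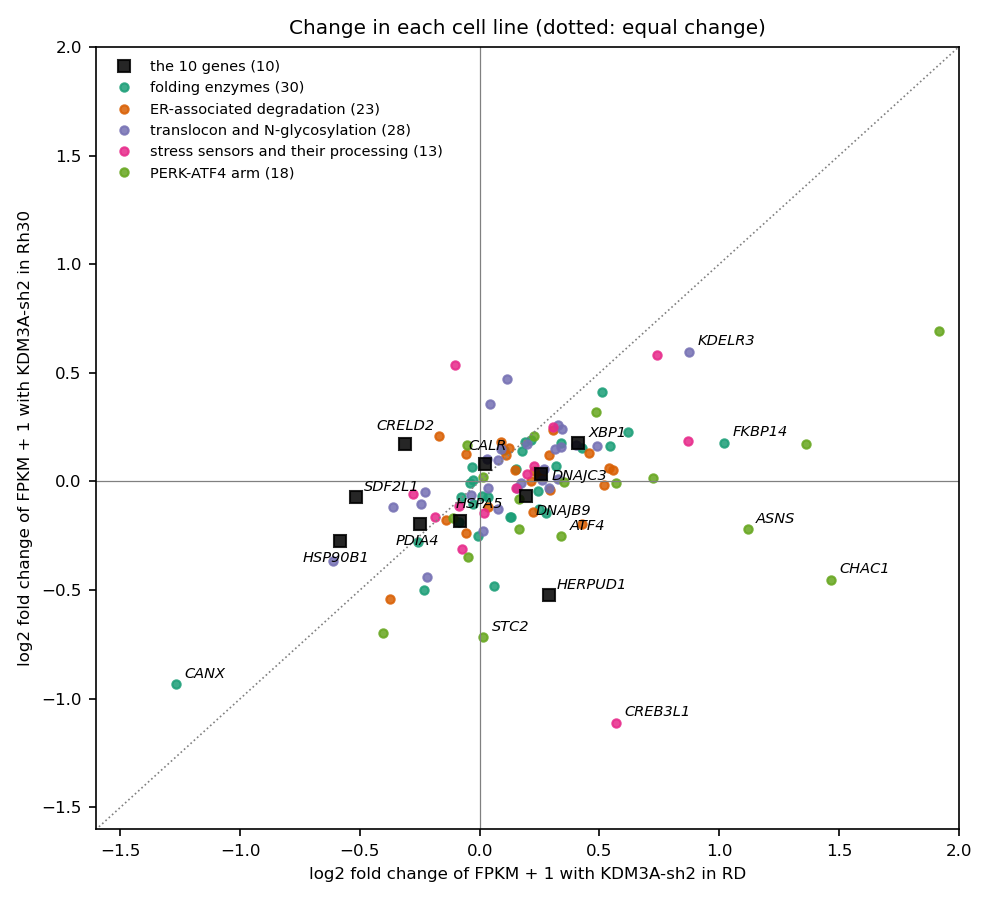
Log2 fold change of FPKM + 1 with KDM3A-sh2 in RD (horizontal) against that in Rh30 (vertical) for the 10 genes (black squares) and the 5 other lists (coloured circles), with equal change on the dotted line. HERPUD1, ATF4, ASNS, CHAC1 and CREB3L1 lie to the right of 0 in RD and below 0 in Rh30, and CANX is far down on both axes.

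Set against these lists, the 10 genes showed a smaller share higher and a larger share lower in RD (3 and 5 of 10). In the 5 lists together 58 rose and 13 fell of 112 tested. No test of this contrast was made. In Rh30 the 5 lists together had 20 higher and 22 lower of 113 tested, beside 15.3% higher and 13.2% lower of all genes.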

How the data were processed

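Directional mRNA libraries from 12 samples were sequenced from 1 end. Per the submitters' processing notes, GSNAP, SAMtools and Cufflinks were used with GRCh38, and Cufflinks gave the authors' FPKM per gene. The annotation release and the strand setting were not given in the sources used here. The deposited table holds unlogged FPKM, with 66095 entries for 65975 gene identifiers. Where an identifier had several entries (117 of them), that of the highest mean was used, and a placeholder of 999999999 in 17 genes, none of them among the 10, was treated as missing. Columns of the authors' own comparisons were not used. FPKM hide the number of reads, so depth is known only relatively, and summed FPKM ran from 1198300 to 1379197 per library. Genes at 1 FPKM or more numbered 17473 to 17983. Positions are those of GENCODE 29.

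Groups came from the sample labels. The comparisons were fitted with limma 3.58.1 in R 4.3.3 (lmFit, eBayes with a trend) on log2(FPKM + 1), keeping genes that averaged 1 FPKM or more over the libraries fitted, within each line, between the Scramble groups, and over all 12 libraries for the interaction. Tests were two-sided, with Benjamini-Hochberg adjustment, and were tested on simulated data. The members, the 5 further lists and the rule for named genes were chosen with earlier results of these data known. That rule took all 10 genes, the 3 called genes per list and line that changed most while averaging 10 FPKM or more with groups apart, and ATF4, DDIT3, ERN1, EIF2AK3, ATF6 and KDM3A. Genes named for likeness were the nearest to each member, of which 1 is not reported here. Alternatives were a pseudocount of 0.1, no filter, a filter of 10 FPKM, the TPM scale, a median-ratio scale, models of each gene alone, a replicate block, a 1.5-fold minimum, 1 fit of all 12 libraries and leaving out each library. Adding the copies of HSP90B1 was chosen after seeing the data. Promoter letters were searched in RefSeq sequences with Python 3.11.15 and pandas 2.3.3.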

Additional observations from a re-analysis of the deposited data

Results flagged for a closer look

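The results below drew attention because the test of the interaction of shRNA and line (limma, adjusted p under 0.05) called a difference between the change in Rh30 and that in RD. Each value is the change in Rh30 less the change in RD, on the log2 scale. Line and culture medium cannot be told apart in these differences. For the 10 genes it was 0.31 for HSP90B1, -0.24 for XBP1, -0.26 for DNAJB9, -0.81 for HERPUD1, 0.44 for SDF2L1 and 0.48 for CRELD2.

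Of the folding enzymes, CANX differed by 0.34, HYOU1 by -0.27, UGGT1 by -0.54 and FKBP14 by -0.84. The degradation genes EDEM1, EDEM2, HERPUD2 and UBE2J1 had differences of -0.48, -0.50, -0.54 and -0.62, and UBE2G2 had 0.38. SSR4 (0.36) and SEC23B (-0.32) differed among the translocon, glycosylation and transport genes. Among the sensors and their relatives the values were -0.68 for EIF2AK3, 0.64 for ATF6B, -0.24 for MBTPS2 and -1.68 for CREB3L1. The difference in MBTPS2 (adjusted p = 0.0408) lost its call in 10 of the 12 fits without 1 library (-0.25 to -0.19), without a filter (adjusted p = 0.0502) and with the replicate block (adjusted p = 0.134). That in ATF6B (adjusted p = 0.0279) lost it in 7 of the 12 (0.53 to 0.64), without a filter (adjusted p = 0.0602), with each gene modelled alone on the log2 scale (adjusted p = 0.0611) and with the block (adjusted p = 0.0759). The UGGT1 difference lost its call without RD Scramble replicate 2 (adjusted p = 0.0538) and on unlogged FPKM (adjusted p = 0.0901). That in SEC23B lost it with the replicate block (adjusted p = 0.0549).

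In the PERK-ATF4 list every difference named was negative, at -0.59 for ATF4, -1.92 for CHAC1, -0.71 for ATF3, -1.34 for ASNS, -0.30 for DDIT4, -0.73 for STC2 and -0.30 for TNFRSF10B. The DDIT4 difference was no longer called without Rh30 Scramble replicate 2 (adjusted p = 0.0501) or Rh30 KDM3A-sh2 replicate 3 (adjusted p = 0.0506). KDM3A itself fell less in Rh30 than in RD, by 0.37 (adjusted p = 0.0387), so a difference in the depth of the knockdown was called in the same test. This call was lost in 8 of the 12 fits without 1 library (0.31 to 0.39). It was also lost without a filter (adjusted p = 0.0701), on the TPM scale (0.087), with each gene alone (0.0714 unlogged, 0.0624 on log2) and with the replicate block (0.0641).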

How the results depend on the processing

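For the 10 genes, 586 of 644 alternative values kept their direction and side of the threshold, 39 lost it, 15 gained it and 4 changed sign. With a minimum change of 1.5-fold, 0 genes were higher and 0 lower in RD and likewise 0 and 0 in Rh30, 0 differed positively and 1 negatively between lines, and 1 was higher and 5 were lower in Rh30 Scramble than in RD Scramble. In Rh30 the number called higher (1) was 2 on unlogged FPKM, 2 with each gene alone on log2, and 0 to 2 without 1 library. Left-out libraries gave 3 to 4 higher and 4 to 4 lower in RD, 3 to 4 lower in Rh30, and 2 to 3 positive and 2 to 4 negative for the interaction. On the TPM scale 5 were negative in the interaction and 1 was higher in the baseline of Rh30. HSPA5 in RD was lost without a filter (adjusted p = 0.0898), on the TPM scale (0.214) and on the median-ratio scale (0.115), and HSP90B1 in Rh30 with each gene alone (0.0838 unlogged, 0.0687 on log2). The cause was not tested.

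The replicate numbers did not pair the samples: deviations of same-numbered libraries correlated at -0.089, -0.050 and -0.079 in RD and at -0.091, -0.247 and -0.193 in Rh30. With the replicate block, 3 of the 10 were higher and 4 lower in RD, 0 higher and 4 lower in Rh30, and 3 were positive and 2 negative in the interaction. Under the block HSPA5 in RD (adjusted p = 0.123), XBP1 in Rh30 (0.0758) and the difference of DNAJB9 between lines (0.128) no longer passed. Over all genes it called 3286 higher and 2980 lower in RD and 1799 and 1623 in Rh30, beside 2721 and 2348 without it. No library correlated best with its own number.

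Values that changed sign are listed with their full range over the fits without 1 library. Without 1 library in RD, STC2 ran from -0.029 to 0.064, UGGT1 from -0.0022 to 0.14, CALR from -0.012 to 0.066 and ATF6B from -0.28 to 0.0049, and in Rh30 DNAJC3 ran from -0.0031 to 0.081 and HERPUD2 from -0.052 to 0.013. On the TPM scale ATF3 in Rh30 was at -0.010, the differences between lines were -0.0041 for CALR and -0.0095 for PDIA4, and the baseline was -0.069 for HERPUD2, -0.052 for UBXN4 and -0.026 for ATF6B. On unlogged FPKM the differences between lines, in FPKM, were 2.63 for HYOU1, 3.73 for SPCS3, 14.7 for DDIT3 (adjusted p = 0.0401) and 0.071 for ATF6. Without 1 library the log2 differences were -0.045 to 0.014 for DDIT3, -0.19 to 0.11 for ERN1 and -0.082 to 0.014 for ATF6. FPKM hold no read counts, so no counting error could be set on any value.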
